A study of Rattus norvegicus with 30 samples.

Results

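The methylated regions described here lie around 1 site in each of 2 voltage-gated ion channel genes, Cacna1c on rat chromosome 4 and Kcnh5 on rat chromosome 6. Peaks of methylated DNA from 30 prefrontal cortex (PFC) libraries were merged wherever they overlapped by at least 1 bp, and a merged region was kept if it had a called peak in at least 2 libraries and lay within 100 kb of either site. This gave 79 regions of 442206 such regions in the genome, 40 of them around the Cacna1c site and 39 around the Kcnh5 site. The 2 sites were chosen by the measured differences between the prenatal groups in these same animals, because both are on the study's lists of differentially methylated regions (DMRs), with Cacna1c on the list shared by PAE and PF and Kcnh5 on the PAE-specific list. The values of the sites in the group comparisons are therefore given as a description, without a test, and only the neighbouring regions and measures other than those comparisons were tested.

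Cacna1c encodes the pore-forming subunit of Cav1.2, an L-type calcium channel that opens on depolarization and couples neuronal activity to calcium-dependent signalling and gene expression. Kcnh5 encodes Kv10.2 (also called Eag2), a voltage-gated potassium channel of the ether-à-go-go family that is expressed in brain. In mammalian neurons 5-methylcytosine is abundant in gene bodies, including introns, as well as between genes. Methylated DNA immunoprecipitation followed by sequencing (meDIP-seq) pulls down fragments with an antibody against 5-methylcytosine, and a peak is a place where such fragments pile up.

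The animals were Sprague-Dawley rats at postnatal day 22, in 3 prenatal groups of 10. Dams of the prenatal alcohol exposure (PAE) group had free access to a liquid diet with ethanol throughout gestation, those of the pair-fed (PF) group received a liquid diet with maltose-dextrin in place of ethanol, rationed to what a PAE partner ate, and those of the control (CON) group had free access to a pelleted control diet. Each group came from 5 dams with 1 offspring labelled female and 1 labelled male per dam, so litter mates share a dam. The PFC was analysed as whole tissue, in which a change in the mix of cell types and a change in DNA methylation (DNAm) within cells cannot be told apart.

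The libraries held 11548314 to 16555049 filtered fragments each, spread over 5 sequencing chips numbered 4 to 8. No PAE library was on chip 7 and no PF library on chip 4. The mean number of autosomal peaks was 151576 ± 26759 in CON, 143998 ± 19297 in PF and 135828 ± 26494 in PAE libraries (SD, n = 10 each). The share of peaks on chromosome X fell into a range of 0.774% to 1.15% in 23 libraries and of 2.65% to 3.14% in the other 7. Chromosome Y peaks split the same way, with 38 to 87 in the 23 libraries and 4 to 11 in the 7. Of the 30 libraries, 18 had a chromosome X share that went against the labelled sex, 13 labelled female with a low share and 5 labelled male with a high share. These were 7 CON, 7 PF and 4 PAE libraries, so results are also given for the 12 libraries that went with their label, 3 CON, 3 PF and 6 PAE. All of these 12 were labelled male except the female-labelled animals of dams E1 (PAE) and PF28 (PF). With 23 of 30 libraries in the low range, a match does not show that a label is right.

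DNAm was expressed as normalized height, meaning the highest pileup that an animal's peaks reached in a region per 1000000 filtered fragments. Coverage below the peak threshold is not in the files. Animals without a called peak, and those with a lower height, were set to a common floor of 0.438. The floor is the highest, over libraries, of the lowest peak height that a library called anywhere in the genome. Called heights began above it at some regions, at 0.526 at the Cacna1c site and 0.501 at the Kcnh5 site. An animal without a peak may therefore lie above or below the floor, and a difference from such animals can be overstated or understated.

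The Cacna1c site is 897 bp long, at chr4:151144141-151145037 of Rn6, in an intron of Cacna1c as the study annotated it. The Kcnh5 site is 588 bp long, at chr6:97981432-97982019 of Rn6, also annotated as intronic. Other positions are given in kb from the start of a site along the chromosome, negative before it and positive after it. The genome sequence and gene models of Rn6 were not used here, so exons and transcript starts within the windows were not placed.

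The 2 windows differed in how often a peak was called, which does not by itself give the level of DNAm in them. Of 62 merged regions in the Cacna1c window, 40 had a peak in at least 2 libraries, and these were called in a median of 10 libraries each. In the Kcnh5 window 39 of 52 merged regions qualified, with a median of 4 libraries. There were 9 Cacna1c regions called in at least 20 libraries against 1 Kcnh5 region, and 14 against 25 regions called in 5 or fewer. No region of either window was called in all 30 libraries, as 3.38% of the fitted autosomal regions were. The widest calls were 27 libraries at +43.3 kb of Cacna1c and 26 libraries at −85.3 kb of Kcnh5.

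Mean heights around Cacna1c were also higher. The mean height over the 30 libraries ran from 0.447 to 1.17 with a median of 0.548 in the Cacna1c window and from 0.438 to 0.768 with a median of 0.475 in the Kcnh5 window, compared with a median of 0.530 for the fitted autosomal regions. The regions were 302 to 1732 bp long (median 533 bp) around Cacna1c and 248 to 1653 bp long (median 435 bp) around Kcnh5. By mean height the Cacna1c site stood at the 85.4 percentile and the Kcnh5 site at the 76.5 percentile of all fitted regions. With a mean of 0.679 over the 30 libraries, the Kcnh5 site came after the region at −85.3 kb, at 0.768, and above the other regions of its window. The Cacna1c site, at 0.801, came after the regions at −90.8 kb, −22.0 kb, −68.5 kb and +43.3 kb, which had means of 1.17, 1.12, 0.837 and 0.804.

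**Figure D1:**
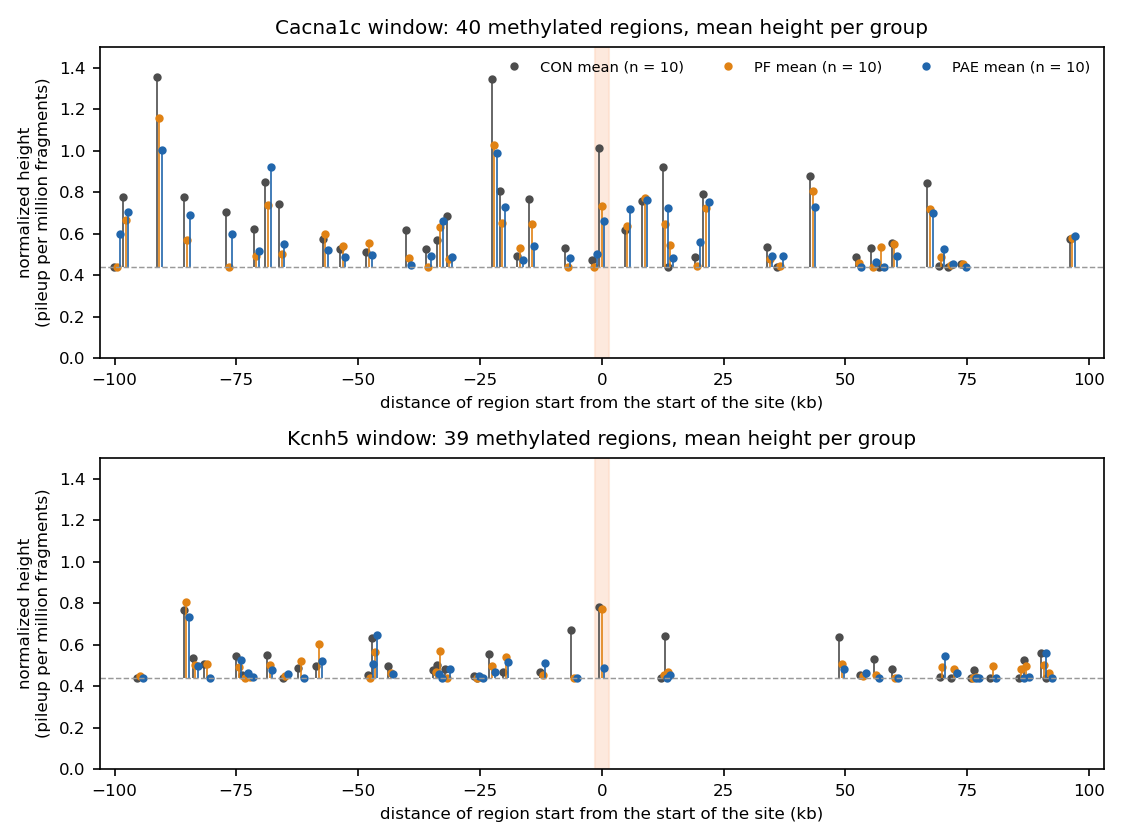
Mean normalized height (vertical axis, highest pileup per 1000000 filtered fragments) of the 40 Cacna1c and 39 Kcnh5 regions against the distance of each region from the site (horizontal axis, kb), with CON in grey, PF in orange and PAE in blue, 10 animals each; the dashed line is the floor of 0.438 and the shaded band marks the site. In CON the tallest regions of the Cacna1c window lie at −90.8 kb, −22.0 kb and the site, and most regions of the Kcnh5 window lie close to the floor, with the site and the region at −85.3 kb above them.

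The threshold on calls left out 22 Cacna1c and 13 Kcnh5 regions with a peak in 1 library. Their heights in that library were 0.429 to 1.45 (median 0.721) around Cacna1c and 0.358 to 0.863 (median 0.439) around Kcnh5. Just inside the threshold, 2 Cacna1c regions and 9 Kcnh5 regions had a peak in 2 libraries, with highest values of 0.604 to 1.09 and 0.425 to 1.93. The nearest regions beyond the windows began or ended 6200 bp before and 1619 bp after the Cacna1c window, and 7120 bp before and 2193 bp after the Kcnh5 window.

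The number of called regions per animal was compared next. An animal had a peak in 12 to 23 of the 40 Cacna1c regions in CON (16.1 ± 3.21), in 9 to 16 in PF (13.6 ± 2.12) and in 9 to 23 in PAE (15.3 ± 4.32, SD, n = 10 each). Around Kcnh5 an animal had a peak in 5 to 15 of the 39 regions in CON (9.2 ± 3.08), 7 to 13 in PF (10.1 ± 2.42) and 3 to 10 in PAE (6.4 ± 2.22). The ranges of the groups overlapped in both windows. These counts include the 2 sites, which the group differences chose. Without the sites the means were 15.2 in CON, 12.9 in PF and 14.9 in PAE around Cacna1c. Around Kcnh5 they were 8.5, 9.2 and 6.1. Over all pairs of a region and an animal, the sites included, 40.2% in CON, 34.0% in PF and 38.2% in PAE had a called peak around Cacna1c. Around Kcnh5 these shares were 23.6%, 25.9% and 16.4%. Of the 39 Kcnh5 regions, 10 had no called peak in any PAE animal, against 7 in CON and 6 in PF. PAE libraries also had the fewest autosomal peaks on average, 135828 against 151576 in CON and 143998 in PF. Group shares over all fitted regions were not computed, so whether the window differs from the genome was not tested.

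**Figure D2:**
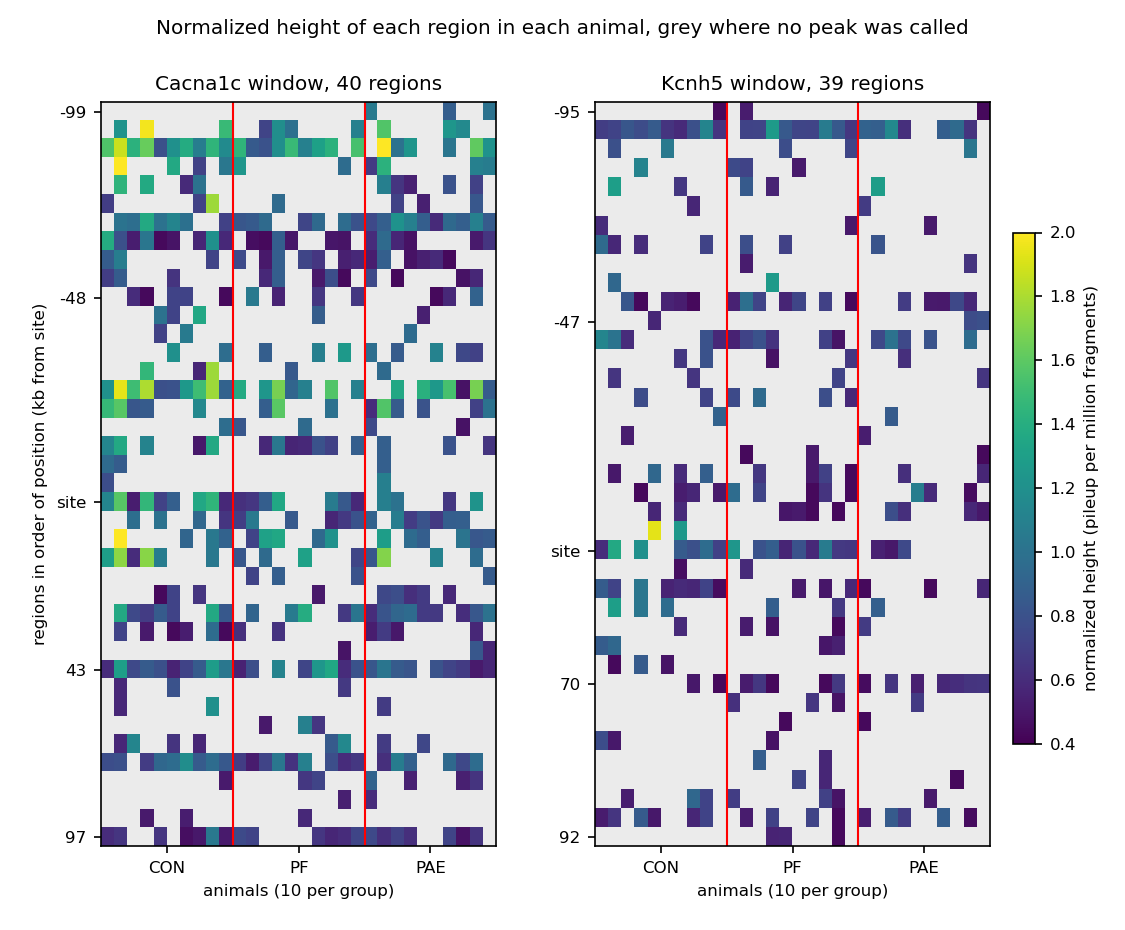
Normalized height of each region (vertical axis, in order of position, labelled in kb from the site) in each of the 30 animals (horizontal axis, 10 per group between the red lines), with colour from 0.4 to 2 pileup per 1000000 fragments and grey where no peak was called. Calls in the Cacna1c window form several nearly continuous bands, whereas most Kcnh5 regions were called in scattered animals.

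At the Cacna1c site fewer PF and PAE animals had a methylation peak than CON animals. A peak was called in 9 of 10 CON, 7 of 10 PF and 4 of 10 PAE animals, and in 7, 6 and 4 animals with peaks limited to a q-value below 0.01. Normalized heights ran from 0.438 to 1.58 in CON with a median of 1.00, from 0.438 to 1.35 in PF with a median of 0.638, and from 0.438 to 1.22 in PAE with a median of 0.438. All 3 groups overlapped, and the 6 PAE animals without a peak set the low PAE median.

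The mean height was 1.01 ± 0.435 in CON, 0.732 ± 0.304 in PF and 0.660 ± 0.318 in PAE (SD, n = 10 each). In the limma model with labelled sex and sequencing chip, the log2 difference was −0.56 (SE 0.221) for PAE versus CON, −0.41 (SE 0.229) for PF versus CON and −0.14 (SE 0.221) for PAE versus PF. The first 2 differences share the CON animals. Among animals with a called peak the median height was 1.13 in CON, 0.846 in PF and 1.05 in PAE, so the 4 called PAE animals, at 0.657 to 1.22, lay within the range of the called CON animals, 0.526 to 1.58.

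At the Kcnh5 site the PAE animals were low and the CON and PF means were close to each other. A peak was called in 7 of 10 CON, 9 of 10 PF and 3 of 10 PAE animals, with the same counts at a q-value below 0.01. Heights ran from 0.438 to 1.37 in CON with a median of 0.750, from 0.438 to 1.24 in PF with a median of 0.734, and from 0.438 to 0.756 in PAE with a median of 0.438. The highest PAE animal reached about the median of the CON and PF animals, so the groups overlapped only in the lower part of their ranges.

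The mean height of the Kcnh5 site was 0.781 ± 0.324 in CON, 0.770 ± 0.244 in PF and 0.487 ± 0.101 in PAE (SD, n = 10 each). The log2 difference was −0.51 (SE 0.224) for PAE versus CON, −0.64 (SE 0.224) for PAE versus PF and 0.12 (SE 0.232) for PF versus CON. Here the called PAE animals were also low, with a median of 0.545 over 3 animals against 0.856 over 7 CON and 0.804 over 9 PF animals.

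**Figure D3:**
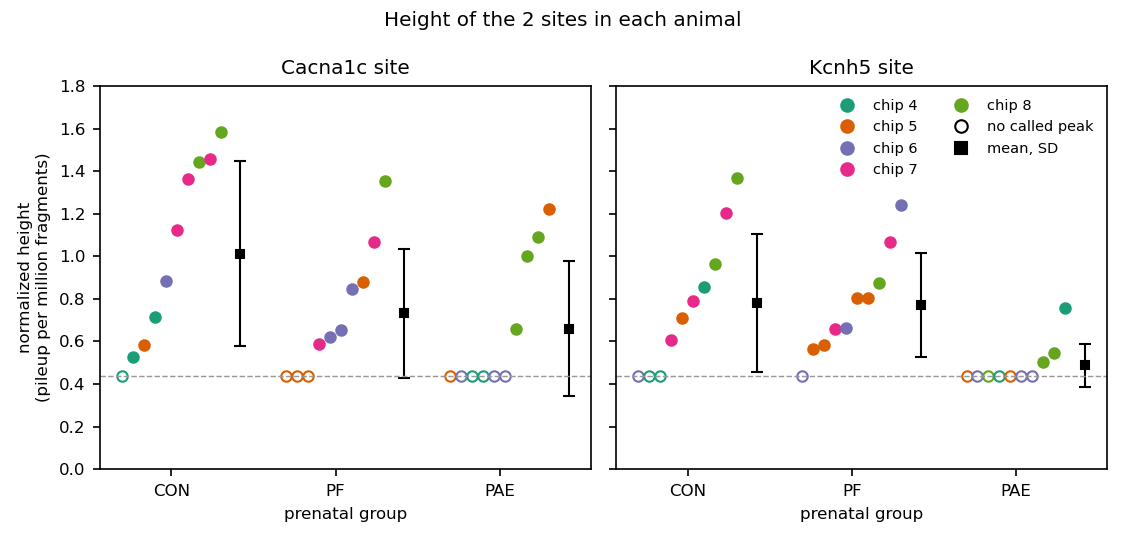
Normalized height of the Cacna1c site and the Kcnh5 site (vertical axis, highest pileup per 1000000 filtered fragments) in each animal of the 3 groups (horizontal axis), coloured by sequencing chip, open where no peak was called and the value is the floor of 0.438; squares with bars are the mean ± SD (n = 10). At the Cacna1c site 1 CON, 3 PF and 6 PAE animals lie on the floor, and at the Kcnh5 site 3 CON, 1 PF and 7 PAE animals do.

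The 2 sites were not called in the same animals throughout. In 14 of 30 animals both sites had a peak, in 6 only the Cacna1c site, in 5 only the Kcnh5 site and in 5 neither. The 5 animals with neither were all PAE animals, while 6 CON, 6 PF and 2 PAE animals had both. These counts combine the 2 differences that chose the sites and are a description of them.

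In the 12 libraries whose chromosome X share went with the labelled sex, compared by group alone, the Cacna1c site differed by −0.57 (SE 0.440) for PAE versus CON, −0.11 (SE 0.440) for PAE versus PF and −0.46 (SE 0.508) for PF versus CON on the log2 scale. The Kcnh5 site differed by −0.70 (SE 0.232), −0.52 (SE 0.232) and −0.18 (SE 0.268). The PF versus CON difference of the Kcnh5 site thus had the opposite sign in these libraries, within its SE of 0 both times.

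The position and shape of the peaks differed between the sites. In the 19 animals with a Kcnh5 peak the summit lay 292 to 456 bp into the region, with a median of 362 bp, and the peaks covered 253 to 555 bp. In the 20 animals with a Cacna1c peak the summit lay 121 to 776 bp into the region with a median of 506.5 bp, and the peaks covered 260 to 859 bp. The middle 50% of the Cacna1c summits lay between 444 and 533 bp, and those of the Kcnh5 site between 350 and 387.5 bp. The depth behind them was low. The pileup was 7 to 22 fragments at the Cacna1c site, with −log10 q of 1.33 to 8.45, and 7 to 19 fragments at the Kcnh5 site, with −log10 q of 2.59 to 14.0.

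Calls at the sites were also counted by sequencing chip, a measure that did not choose the sites but whose libraries are uneven in group. The Cacna1c site was called in 2 of 5 libraries on chip 4, 3 of 7 on chip 5, 4 of 7 on chip 6, 5 of 5 on chip 7 and 6 of 6 on chip 8. The Kcnh5 site was called in 2 of 5, 5 of 7, 2 of 7, 5 of 5 and 5 of 6. Chips 7 and 8 also had the most autosomal peaks, with medians of 153344 and 182836 per library against 132902 to 136160 on the other chips.

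In the limma test of chip, the Cacna1c site had an unadjusted p of 0.000273 and an adjusted p of 0.0740, short of the FDR of 0.05. Of 38 fitted Cacna1c regions, 9 had an unadjusted p under 0.05 for chip and 0 passed the FDR, and of 30 fitted Kcnh5 regions 1 had an unadjusted p under 0.05 and 0 passed. Over all fitted regions 13.6% had an unadjusted p under 0.05 for chip and 0.0321% passed the FDR. The part of chip in the group differences was not tested beyond the chip term and the values within chips.

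Within chips, the mean log2 height of the Cacna1c site in PAE relative to CON was −0.32 on chip 4, 0.33 on chip 5, −1.01 on chip 6 and −0.76 on chip 8, from 1 to 3 animals a group. Chip 5 was the exception, with a single CON animal at 0.582 and 1 of 2 PAE animals at 1.22. PF relative to CON was −0.16, −0.33, −0.73 and −0.16 on chips 5 to 8, and PAE relative to PF was 0.49, −0.68 and −0.60 on chips 5, 6 and 8.

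For the Kcnh5 site PAE relative to CON was 0.07 on chip 4, −0.70 on chip 5, 0.00 on chip 6 and −1.22 on chip 8. On chip 6 the single CON animal and the 3 PAE animals all had no peak. PAE relative to PF was −0.63, −0.70 and −0.83 on chips 5, 6 and 8, negative on each chip that held both groups. The site was chosen partly by this difference in the same animals, so its sign within chips is a description. PF relative to CON was −0.06, 0.70, 0.01 and −0.39 on chips 5 to 8.

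Libraries in which a site was called also had more peaks in all. The median number of autosomal peaks was 149328 where the Cacna1c site was called and 132352 where it was not, and 149679 against 127618 for the Kcnh5 site. The part of this difference in the calls at the sites was not tested.

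Litter mates were often discordant. At the Cacna1c site both animals of a dam had a peak in 7 of 15 litters, 1 of them in 6 litters and neither in 2 litters. At the Kcnh5 site these counts were 6, 7 and 2 litters. The 2 litters with no peak were PAE litters at both sites, and no PAE litter had a Kcnh5 peak in both animals. By labelled sex the 3 PAE animals with a Kcnh5 peak were all labelled female, of 5, with 0 of 5 labelled male, whereas at the Cacna1c site 2 of 5 PAE animals of each labelled sex had a peak. With 18 libraries going against the labelled sex, this split by label was not read further.

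None of the neighbouring regions differed between groups at the FDR. Of 77 regions other than the 2 sites, 66 had a peak in at least 3 libraries and were fitted, 37 around Cacna1c and 29 around Kcnh5, and 11 were called in 2 libraries and were not fitted. For PAE versus CON 0 of 66 passed the FDR in limma and 2 had an unadjusted p under 0.05, against 0.000284% and 7.37% of all fitted regions. For PAE versus PF the counts were 0 and 1 of 66, against 0% and 4.46%, and for PF versus CON 0 and 4 of 66, against 0% and 6.46%. The 1 region for PAE versus PF, at −99.5 kb of Cacna1c, met the threshold for a fit only through PAE animals. The smallest adjusted p was 0.661, 0.988 and 0.773. Fisher's exact test of called against uncalled animals gave 0 past the FDR and 0, 1 and 0 of 66 at an unadjusted p under 0.05, against 0% past the FDR and 0.864%, 0.747% and 0.786% of all fitted regions at the unadjusted threshold.

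The direction of the neighbours is given beside that of all fitted regions. For PAE versus CON 25 of 37 Cacna1c neighbours and 18 of 29 Kcnh5 neighbours had a negative log2 difference, with medians of −0.09 and −0.04, beside 63.3% and a median of −0.05 over all fitted regions. For PAE versus PF 21 of 37 and 18 of 29 were negative, with a median of −0.02 in both windows, beside 56.4% and −0.02. For PF versus CON 26 of 37 and 17 of 29 were negative, with medians of −0.09 and −0.02, beside 57.6% and −0.03.

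Neighbours close to a site went in both directions. Within 25 kb of the Cacna1c site 6 of 11 neighbours were negative for PAE versus CON, from −0.53 to 0.33, and within 25 kb of the Kcnh5 site 3 of 5 were, from −0.36 to 0.12. In the order of all fitted regions of a window, the Cacna1c site had the lowest PAE versus CON difference of 38, and the Kcnh5 site the lowest of 30 for PAE versus CON and also for PAE versus PF. The study's shared list also needed a difference for PF versus CON, where the Cacna1c site was only at place 6 of 38 from the lowest. For PAE versus PF it was at place 11. The lowest places are all in contrasts that chose the sites, so they are a description.

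**Figure D4:**
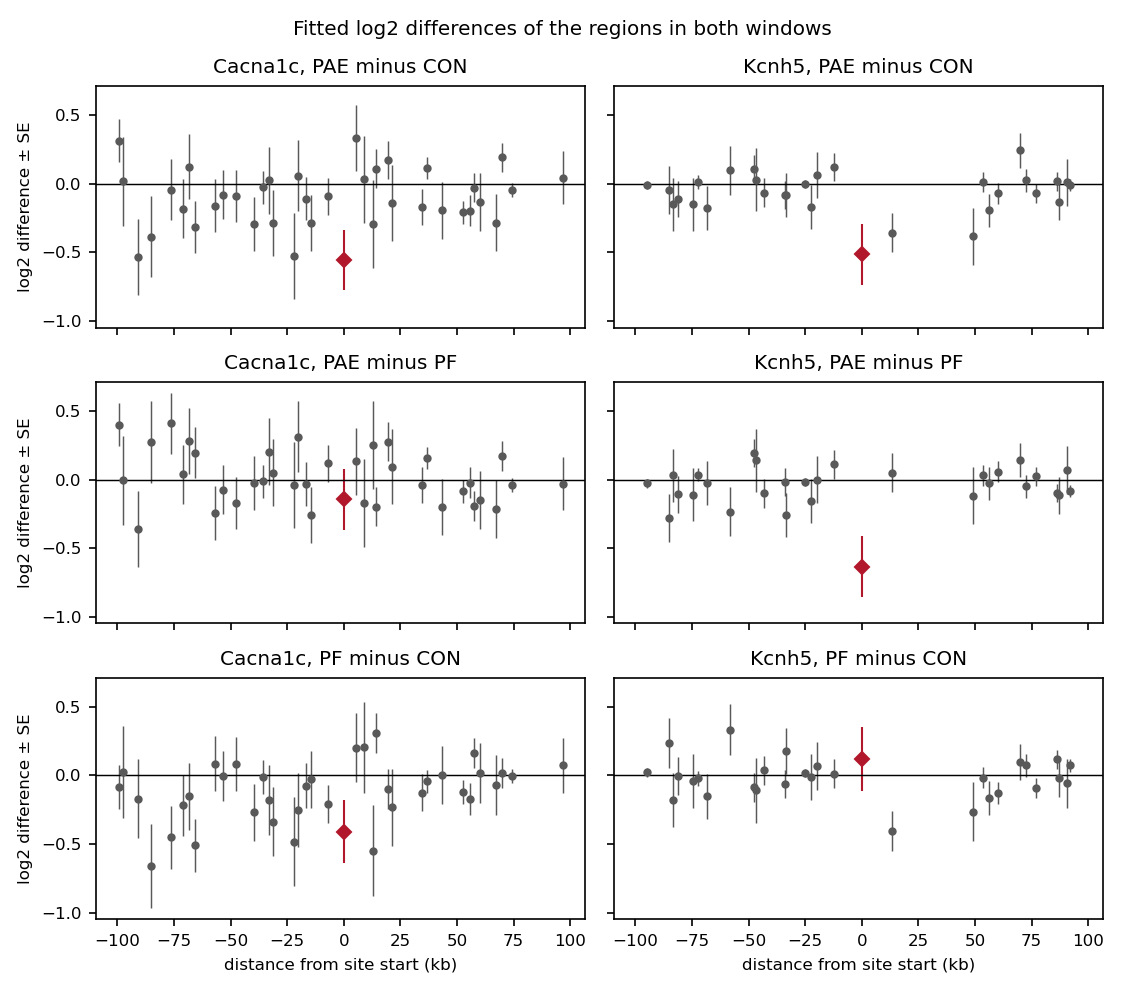
Fitted log2 difference in normalized height ± SE (vertical axis) of the 38 Cacna1c and 30 Kcnh5 fitted regions against their distance from the site (horizontal axis, kb) for PAE minus CON, PAE minus PF and PF minus CON, with the site as a red diamond. The sites lie at −0.56 and −0.51 for PAE minus CON, and the neighbours lie on both sides of 0 with SEs that mostly span it. The Cacna1c neighbours at −90.8 kb and −22.0 kb, both at −0.53 for PAE minus CON, lie close to the value of the site.

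The nearest regions on either side of the Cacna1c site were unlike in how often they were called. At −1.53 kb of Cacna1c (chr4:151142608-151143021) 1 CON animal and 1 PAE animal had a peak. At +5.23 kb (chr4:151149367-151149975) the order of the groups was the reverse of that at the site, with a peak in 4 CON, 6 PF and 7 PAE animals and means of 0.619 ± 0.252, 0.638 ± 0.213 and 0.721 ± 0.226 (SD, n = 10 each). The log2 difference there was 0.33 (SE 0.242) for PAE versus CON, with an adjusted p of 0.751 in limma.

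Around Kcnh5, the nearest regions had few calls. The region at −5.67 kb (chr6:97975760-97976007) had a peak in 2 CON animals, the higher at 1.93, the highest value of any animal in the window. At +12.8 kb (chr6:97994201-97994593) 1 CON and 1 PF animal had a peak. Next to it, the region at +13.5 kb (chr6:97994977-97995587) was called in 8 CON animals but in 3 PF and 3 PAE animals. Its heights were 0.438 to 1.03 with a median of 0.583 in CON, 0.438 to 0.586 in PF and 0.438 to 0.573 in PAE, both with a median of 0.438. The highest CON animals thus lay above all PF and PAE animals, although the groups overlapped at the low end. This region had the smallest unadjusted p of the Kcnh5 neighbours for both PAE versus CON (log2 difference −0.36, SE 0.141, adjusted p 0.661) and PF versus CON (−0.41, SE 0.146, adjusted p 0.773), which share the CON animals, and neither passed the FDR in limma.

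The regions of the Cacna1c window with the highest mean height lay away from the site. At −90.8 kb (chr4:151053311-151053772) 10 CON, 9 PF and 6 PAE animals had a peak, with mean heights of 1.35 ± 0.308, 1.16 ± 0.361 and 1.00 ± 0.589 (SD, n = 10 each). At −22.0 kb (chr4:151122112-151122732) 10 CON, 7 PF and 7 PAE animals had one, with means of 1.35 ± 0.424, 1.03 ± 0.464 and 0.989 ± 0.510. Both regions were highest in CON on average, and no CON animal was below 0.788 at either. The groups overlapped in part, since 1 PF and 4 PAE animals at −90.8 kb and 3 PF and 3 PAE animals at −22.0 kb had no peak and lay at the floor. Their log2 differences for PAE versus CON, both −0.53, had adjusted p of 0.685 and 0.708 in limma. At −68.5 kb (chr4:151075662-151076066) all 10 PAE animals had a peak against 7 CON and 7 PF animals, with a log2 difference of 0.13 (SE 0.239) for PAE versus CON and 0.28 (SE 0.239) for PAE versus PF. The latter was 0.14 without the female-labelled PF animal of dam PF27.

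Around Kcnh5 the region at −85.3 kb (chr6:97896136-97896709) was the highest in mean height and the site came next. The region had a peak in 10 CON, 9 PF and 7 PAE animals, and its means of 0.767 ± 0.152, 0.804 ± 0.229 and 0.734 ± 0.252 (SD, n = 10 each) were close to each other. The third in height, at −46.6 kb (chr6:97934840-97935894), was called in 5 CON, 6 PF and 5 PAE libraries, with log2 differences of 0.03, 0.14 and −0.11 for the 3 contrasts.

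Of the remaining regions with the smallest unadjusted p in a contrast, 1 was called in 21 libraries and the other 3 in 3 libraries each. At −65.7 kb of Cacna1c (chr4:151078455-151079300) 9 CON, 6 PF and 6 PAE animals had a peak, with a log2 difference of −0.51 (SE 0.195, adjusted p 0.773) for PF versus CON in limma. At +52.7 kb (chr4:151196861-151197204) 2 CON and 1 PF animal had a peak, with −0.21 (SE 0.084, adjusted p 0.661) for PAE versus CON. At −99.5 kb (chr4:151044676-151045013) the only peaks were in 3 PAE animals, with 0.40 (SE 0.157, adjusted p 0.988) for PAE versus PF. These animals alone brought the region to the threshold for a fit, so the sign of its difference was fixed beforehand. At −47.5 kb of Kcnh5 (chr6:97933934-97934262) 1 CON and 2 PAE animals had a peak, with 0.20 (SE 0.101, adjusted p 0.988) for PAE versus PF. None of them passed the FDR. At the 3 regions with 3 calls leaving out a single animal moved the difference by more than 1.5 times. It was 0.21 at −99.5 kb without the female-labelled PAE animal of dam E1, and −0.10 at +52.7 kb without the male-labelled CON animal of dam C41. At −47.5 kb it was 0.09 and 0.11 without the male-labelled PAE animals of dams E6 and E9.

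For no neighbour did the difference between labelled sexes pass the FDR. Since 18 of the 30 libraries had a chromosome X share against the label, this test cannot show whether the sexes themselves differ. The interaction of group and labelled sex had an unadjusted p under 0.05 in 3 of 66 neighbours and 0 passed the FDR in limma, with a smallest adjusted p of 0.993, against 3.84% and 0% of all fitted regions. In the 12 libraries whose chromosome X share went with the label, 0 of 66 passed the FDR in each contrast, while of all fitted regions 0.021% passed for PAE versus CON, 0.0105% for PAE versus PF and 0.0071% for PF versus CON. An unadjusted p under 0.05 was found in 5 of 66 neighbours for PAE versus CON, against 5.45%, in 0 for PAE versus PF, against 3.04%, and in 2 for PF versus CON, against 5.05%.

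Across the 30 animals, the regions whose log2 height was most like that of a site lay elsewhere in the genome. For the Cacna1c site the highest Pearson r among 154989 autosomal regions called in at least 10 libraries was 0.872, at chr5:24335691-24336523, followed by 0.871 at chr6:98352411-98353816 and 0.862 at chr16:86981610-86982263. Within its own window the highest r was 0.647, at −65.7 kb, and the median over 37 regions was 0.238. For the Kcnh5 site the highest r among 155000 regions was 0.892, at chr1:101578387-101579171, followed by 0.815 at chr1:152804825-152805532 and 0.803 at chr20:11539539-11540487. The first of these had mean heights of 0.881 in CON, 0.820 in PF and 0.449 in PAE, with a peak in 6, 6 and 1 animals. Within the Kcnh5 window the highest r was 0.586 and the median over 29 regions was 0.162. The points of each correlation are the same 30 libraries and share their chip, depth and group, and animals at the floor in both regions raise r.

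Other calcium and potassium channel genes are on the same lists of the study, which were chosen on these animals and are not independent evidence of a direction. There were 18 listed regions with a symbol beginning with Cacn or Kcn, under 16 symbols as spelled there, of which 17 could be fitted, and 15 of these were not the Cacna1c or Kcnh5 site. For PAE versus CON 13 of the 15 had a negative log2 difference, with a median of −0.40 and a range of −0.94 to 0.04. For PF versus CON, which shares the CON animals, 14 of 15 were negative, with a median of −0.33. For PAE versus PF 6 of 15 were negative, with a median of 0.04. The Cacna1c site, at −0.56 and −0.41 relative to CON, lay among the other listed calcium channel regions, which include pore-forming (Cacna1b, Cacna1d, Cacna1g) and auxiliary (Cacna2d1, Cacna2d2, Cacnb2) subunits. Of the 17, the Kcnh5 site had the most positive PF minus CON difference, at 0.12, and the most negative was −1.04 at a Kcnab2 region.

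**Figure D5:**
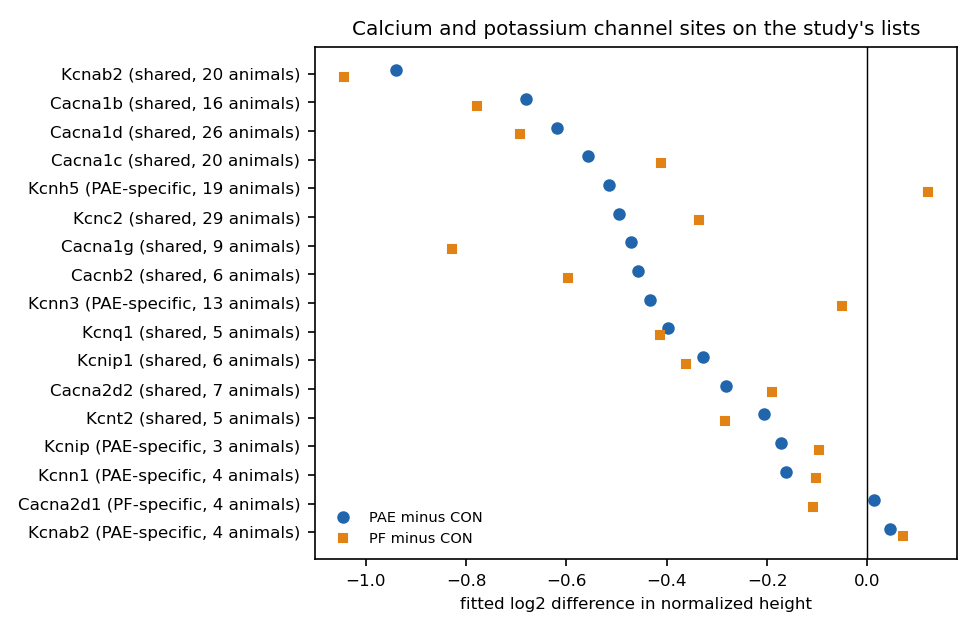
Fitted log2 difference in normalized height (horizontal axis) for PAE minus CON (blue circles) and PF minus CON (orange squares) at the 17 fitted calcium and potassium channel regions on the study's lists (vertical axis, with the list and the number of animals with a called peak). At the Cacna1c region both differences are negative, at −0.56 and −0.41, whereas at the Kcnh5 region PAE lies at −0.51 and PF at 0.12.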

How the data were processed

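DNAm in the PFC of 30 rats was measured by meDIP-seq. The authors used BWA for alignment to Rn6 and SAMtools for filtering, and each library's peaks were called on its own by MACS2 (2.1.4 per the file headers), with no input control and a q-value threshold of 0.05. Pileup, the signal deposited for a peak, counts overlapping fragments and was not scaled by the authors to library size. Deposited −log10 q-values served the stricter threshold. Reads per region were not used here. Depth was 11548314 to 16555049 filtered fragments per library, and no pair of libraries shared the pileup of more than 10.9% of regions, as a repeated library would.

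Group, labelled sex, dam and chip came from the sample labels. Log2 normalized heights of the 352026 autosomal regions called in at least 3 libraries were fitted with limma 3.58.1 (R 4.3.3, trended prior variance) with group, labelled sex and chip, and p-values were adjusted over these regions (Benjamini-Hochberg, FDR of 0.05). The fit was tested on simulated data. Tables and figures used Python 3.11.15, numpy 2.4.6, pandas 2.3.3, scipy 1.17.1 and matplotlib 3.10.9. Alternatives were no chip term, no labelled sex term, each animal's own floor, a value of 0 with a pseudocount of 0.1, median ratio scaling, a q-value below 0.01, coverage of at least 50% of a region by peaks, regions called in at least 2 libraries, regions called in all 30 libraries, litter as a random effect, each animal left out, the 12 libraries whose chromosome X share went with the label, and Fisher's exact test.

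The regions and lists were chosen with earlier results of these data known. Regions named in the text were the sites, the nearest region on each side, the 3 with the highest mean height per window, the neighbour with the smallest unadjusted p per window and contrast, and the 3 regions most correlated with each site. The regions at +43.3 kb of Cacna1c, with the widest call, and the channel genes singled out in the text were named after their values were seen. Columns of the study's own comparisons were not used, and only positions, genes, features and list membership of its listed regions were taken.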

Additional observations from a re-analysis of the deposited data

Results flagged for a closer look

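Among the named regions, 40 groups of 10 animals with at least 1 called peak were examined for an animal far from the others, and 13 had one, where chance gives about 1 in 20 groups. In most of them 1 to 3 animals had a peak and the rest lay at the floor of 0.438, a spread for which the test was not made. The highest PAE animal at the Kcnh5 site was at 0.756, with the next at 0.545. At −65.7 kb of Cacna1c the highest PF animal was at 0.875 and the highest PAE animal at 0.953. At −1.53 kb of Cacna1c the single CON and PAE animals with a peak were at 0.779 and 1.09, and at +52.7 kb the highest CON and PF animals were at 0.803 and 0.664. Around Kcnh5, the highest CON animal was at 1.12 at −85.3 kb, where all 10 CON animals had a peak, and at 0.573 at −47.5 kb. At +12.8 kb of Kcnh5 the CON and PF animals with a peak were at 0.461 and 0.590, and at +13.5 kb the highest PF and PAE animals were at 0.586 and 0.573.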

How the results depend on the processing

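None of the 66 neighbours fitted in the main model passed the FDR under any alternative that gave values for them. Of these, 60 could be fitted with a q-value below 0.01 and 56 with 50% coverage. Neighbours called in only 2 libraries were not counted. No region of either window was called in all 30 libraries, so that alternative gave no value. Of 1200 log2 differences of named regions recomputed under alternatives, 1165 kept their direction and 35 had the opposite one. For the sites these were the Cacna1c site for PAE versus PF, at 0.16 where peaks had to cover at least 50% of the region, and the Kcnh5 site for PF versus CON, at −0.18 in the 12 libraries that went with their sex label. The Cacna1c region at −22.0 kb for PAE versus PF was at 0.00614 with a pseudocount of 0.1, 0.0498 with median ratio scaling, 0.33 with 50% coverage, 0.26 in the 12 libraries and −0.24 to 0.15 with single animals left out. The region at +5.23 kb was at −0.20 for PAE versus PF in the 12 libraries, and the region at −68.5 kb ran from −0.0145 to 0.22 for PAE versus CON and from −0.27 to 0.00192 for PF versus CON with single animals left out. The Kcnh5 region at −85.3 kb for PAE versus CON was at 0.0650 with median ratio scaling and −0.125 to 0.0242 with single animals left out. At −46.6 kb of Kcnh5 the pseudocount gave −0.18 for PAE versus CON, −0.33 for PAE versus PF and 0.16 for PF versus CON, 50% coverage gave −0.31 and −0.0734 for the first 2, and single animals left out gave −0.0750 to 0.11, −0.0182 to 0.27 and −0.21 to 0.00621. The causes were not tested.

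With each animal left out the site differences kept their sign. The sites were chosen by group differences in these same animals, so this is a description and not independent support. For Cacna1c they ran from −0.72 to −0.49 in PAE versus CON, −0.39 to −0.05 in PAE versus PF and −0.50 to −0.28 in PF versus CON, and for Kcnh5 from −0.66 to −0.39, −0.72 to −0.51 and 0.02 to 0.22. Under the other settings PAE versus CON ran from −1.66 (pseudocount) to −0.34 (50% coverage) for Cacna1c and from −1.17 to −0.40 for Kcnh5, and PAE versus PF from −1.97 to −0.52 for Kcnh5. The number of neighbours with an unadjusted p under 0.05 in PAE versus CON ran from 1 to 7 of 66 with single animals left out, the most without the female-labelled PAE animal of dam E2. Of all fitted regions with an unadjusted p under 0.05 for PAE versus CON, 81.8% were negative, and 66.1% with median ratio scaling, for PAE versus PF 66.2% and 53.8%. Pileups of 7 to 22 fragments and the missing coverage below the peak threshold limit what the heights can show.

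No paired analysis was possible because the groups share no replicate numbers; animals share a dam only within a group, and the consensus correlation within litters was −0.02 over 10000 regions.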
